A study of Mus musculus with 8 samples.

Results

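The genes examined here carry the signal of leukemia inhibitory factor (LIF) from the cell surface to the nucleus and switch it off again. They are 8 of the 55536 genes in the annotation used, namely the receptor chains Lifr and Il6st, the kinase Jak1, the transcription factor Stat3, and the feedback inhibitors Socs1, Socs2, Socs3 and Cish. They were chosen by name. Their N6-methyladenosine (m6A) peaks were those with at least 1 base, on the same strand, in an annotated exon of the gene. This gave 19 of 18895 peaks in cells given DMSO and 10 of 13001 peaks in cells given doxycycline (Dox).

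m6A was measured by methylated RNA immunoprecipitation sequencing, in which fragments of poly(A) RNA of about 150 nt are pulled down with an antibody against m6A and compared with input RNA. The cells, mouse embryonic stem cells (ESCs) derived from E14, carry a Dox-inducible Dux transgene and a tdTomato reporter driven by the Mervl promoter, and both treatments lasted 24 h. Dux drives part of the cells toward a state that resembles the 2-cell embryo (2C-like cells), so the Dox samples are a mixture of cells, and DMSO, the solvent, served as the control. The labels gave 8 libraries, 2 replicates each of the pulled-down RNA (IP) and the input under DMSO and under Dox, and the medium of all groups held 1000 U/ml LIF. The peaks came as 1 list per treatment, with replicates already combined, so there is no replicate spread, no test between treatments was possible, and every comparison below describes these lists. Intervals are Wilson 95% intervals of shares and cover counting error only. Read depth and transcript levels were not analysed here. A gene without a peak may be unmethylated, weakly expressed or covered too thinly to be called, and these cannot be told apart. In such bulk samples, fewer cells of a type and less RNA per cell also cannot be told apart.

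LIF binds a receptor made of LIFR and gp130, the product of Il6st, and the Janus kinases attached to the receptor, JAK1 above all in ESCs, then phosphorylate STAT3. Phosphorylated STAT3 enters the nucleus and maintains the genes that keep mouse ESCs undifferentiated. STAT3 and other STATs also switch on the SOCS genes and Cish, whose proteins bind the receptor or the kinase and damp the signal. m6A is written on mRNA mostly within the motif DRACH (in which D excludes C, H excludes G and R is A or G), of which GGAC is the form searched here, and it is known to gather in long last exons and around stop codons.

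The labelled cell type was checked against marker genes. All 5 ESC markers (Pou5f1, Sox2, Nanog, Esrrb and Zfp42) carried a peak in both lists. Of 5 markers of the 2C-like state, Zscan4c and Zscan4d carried a peak in the DMSO list, and these and Duxf3, Usp17la and Zfp352 in the Dox list. The Zscan4d call in the DMSO list and the Zfp352 call in the Dox list each rested on 1 peak over 25 exonic bases. The shortest peaks in each list measured 25 nt. Several of these markers belong to multicopy families, and Duxf3 reads could come from the transgene, so the copy behind such peaks is uncertain. None of 3 fibroblast, 3 primitive endoderm and 2 trophoblast markers had a peak in either list.

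Peaks were found on 6 of the 8 genes in the DMSO list (75.0%, interval 40.9 to 92.9%), where 27.5% of all protein-coding genes had one. In the Dox list 5 of the 8 genes had a peak (62.5%, interval 30.6 to 86.3%), against 22.1% of protein-coding genes. Those shares are over all 22028 annotated protein-coding genes, whether expressed in these cells or not. Lifr, Il6st, Jak1, Socs2 and Socs3 had peaks in both lists, Stat3 had peaks in the DMSO list alone, and Socs1 and Cish had none. The call of Jak1 in both lists ended under 3 alternatives. It had no peak in either list at a score of at least 11.6, the DMSO median, a Dox peak alone in lists of equal size, and a DMSO peak alone among peaks of at least 50 nt. One gene of the 6 with a DMSO peak thus lacked a Dox peak, and over all protein-coding genes with a DMSO peak that share was 22.0%.

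**Figure D1:**
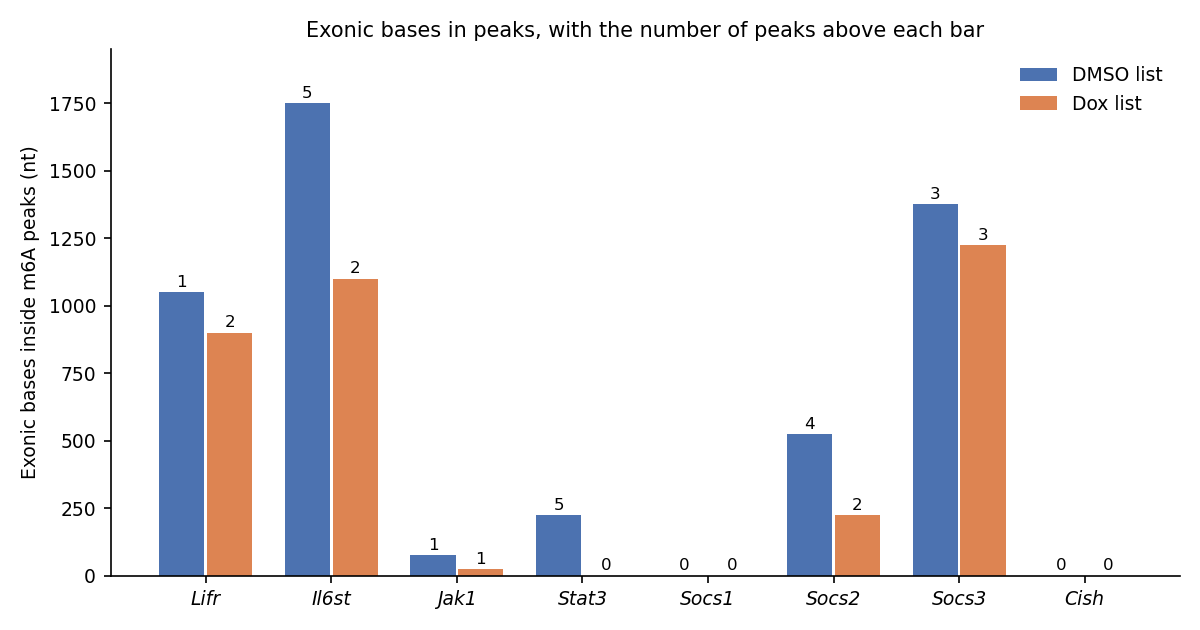
Exonic bases of each gene that lay inside m6A peaks (vertical axis, nt), as bars for the DMSO and the Dox list, with the number of peaks above each bar and 1 list per treatment. Il6st, Socs3 and Lifr hold 900 bases or more in each list, Stat3 holds 225 bases under DMSO and 0 under Dox, and Socs1 and Cish are at 0 in both.

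The peaks covered 5000 exonic bases of the 8 genes in the DMSO list, against 3475 in the Dox list, a ratio of 1.44, beside 1.47 for the bases of all peaks. The number of peaks had a ratio of 1.90, beside 1.45 for all peaks. Peaks of both lists share places and lie on few genes, so no interval is given for this ratio. With lists of equal size the counts were 11 DMSO and 10 Dox peaks. The Dox peaks lay almost wholly within the DMSO peaks. Of the Dox bases 3450 (99.3%) were also in a DMSO peak, and these made up 69.0% of the DMSO bases. The 25 bases found in the Dox list alone belonged to Socs2.

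Counted by peak, 10 of the 10 Dox peaks shared at least 1 base with a DMSO peak (interval 72.2 to 100%), against 92.7% of all Dox peaks. In the other direction 8 of the 19 DMSO peaks shared a base with a Dox peak (42.1%, interval 23.1 to 63.7%), against 57.0% of all DMSO peaks. The 11 DMSO peaks without a partner were 25 to 200 nt long, a range that also held most DMSO peaks with a partner. Those 11 peaks added up to 775 bases. They lay on Stat3 (5 peaks), Il6st (4 peaks) and Socs2 (2 peaks).

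**Figure D2:**
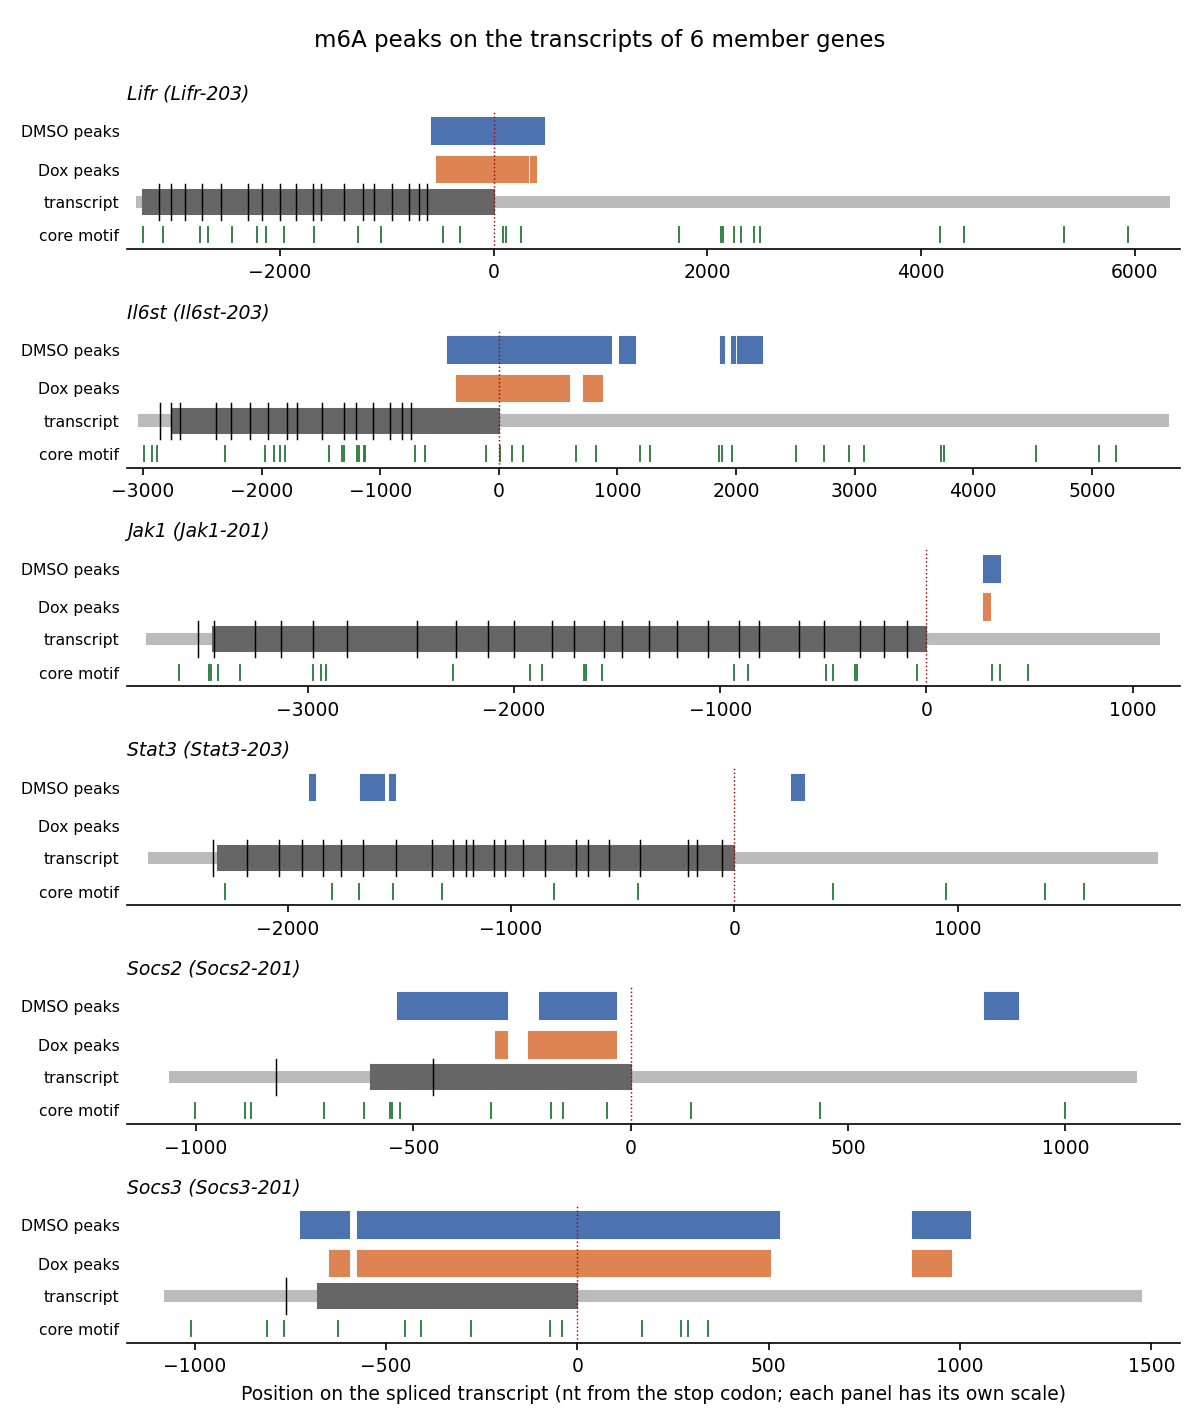
Peaks of the DMSO and the Dox list on the spliced transcripts of the 6 genes with a peak; the horizontal axis is the position in nt from the first base of the stop codon (dotted line), thick grey is coding sequence, thin grey is untranslated sequence, black lines are exon junctions and green ticks mark the GGAC core motif. The longest peaks of Lifr, Il6st and Socs3 span the stop codon in both lists, and Stat3 has peaks in the DMSO list alone.

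Lifr encodes the chain that binds LIF itself. In the DMSO list it carried a single peak of 1050 nt at chr15:7190589-7191638 (mm10, plus strand), all within the last exon of 6944 nt. Along the transcript the peak ran from position -578 to 471, where 0 is the first base of the stop codon. Its score, read here as the −log10 p-value from the authors' peak caller, was 17.9. This was higher than the score of 95.0% of the peaks in that list.

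In the Dox list the same stretch was called as 2 peaks, one of 850 nt at chr15:7190639-7191488 with a score of 11.9 and one of 50 nt at chr15:7191514-7191563 with a score of 12.5. These sat at the 62.3 and 72.5 percentiles of their list. All 900 Dox bases lay inside the DMSO peak, so that 150 bases of Lifr were in the DMSO list alone. Scores move with read depth, so they are better read by their rank within a list than across lists. All 5 GGAC motifs under the DMSO peak were also under the 850 nt Dox peak, 2 of them in coding sequence and 3 in the 3′UTR. The 120 nt of coding sequence shown here lay inside the peaks of both lists and were chosen because they hold the most GGAC motifs, set in capitals, of any such window. They lie at chr15:7190790-7190909 on the plus strand. The 1 GGAC in this window is followed by G, so the window holds no DRACH match.

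Lifr coding window: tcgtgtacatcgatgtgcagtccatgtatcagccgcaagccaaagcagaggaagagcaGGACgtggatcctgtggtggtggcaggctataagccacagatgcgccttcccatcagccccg

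Il6st encodes gp130, the chain shared by the receptors of the IL-6 family. It had the most bases in peaks of the 8 genes in the DMSO list, 1750, which was more than 93.8% of the protein-coding genes with a peak. Its 5 DMSO peaks all lay in the last exon of 6382 nt. The longest, of 1375 nt at chr13:112504013-112505387 on the plus strand, ran from position -430 to 944 over the stop codon with a score of 12.3. The other 4 were in the 3′UTR, of 125 nt with a score of 13.9, of 200 nt with a score of 11.3, and of 25 nt each with scores of 10.1 and 10.2.

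In the Dox list Il6st had 2 peaks and 1100 bases, all of them within the longest DMSO peak. The first spanned the stop codon again, with 950 nt at chr13:112504088-112505037 and a score of 13.4. The second, of 150 nt at chr13:112505163-112505312, had a score of 12.5. Most of the 650 bases of Il6st found in the DMSO list alone were thus downstream, as no Dox peak reached beyond position 869, while DMSO peaks were called as far as position 2219. The coding window chosen as for Lifr lies at chr13:112504277-112504396, inside the peaks of both lists.

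Il6st coding window: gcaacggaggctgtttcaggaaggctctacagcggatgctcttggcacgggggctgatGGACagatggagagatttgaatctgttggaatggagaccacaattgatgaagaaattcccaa

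Both 25 nt peaks of the DMSO list in the Il6st 3′UTR are shown whole, since no Dox peak overlapped them. They lie at chr13:112506313-112506337 and chr13:112506413-112506437, and the capitals mark GGAC in the first and a DRACH match in the second.

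Il6st DMSO peak with GGAC: tcccagttaGGACtgagttttctat

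Il6st DMSO peak with DRACH: tatccatgttcagctgTGACTtccc

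Jak1 encodes the kinase bound to gp130, and among those with peaks under both treatments it had the fewest bases in peaks. The DMSO peak of 75 nt lay at chr4:101153142-101153216 on the minus strand with a score of 10.6, and the Dox peak of 25 nt lay at its upstream end, at chr4:101153192-101153216, with a score of 10.2. Both lay in the 3′UTR from position 281 onward. The scores exceeded those of only 14.9% of the DMSO peaks and 4.15% of the Dox peaks, so both calls were among the weakest of their lists. The longer peak held 1 GGAC motif that the shorter one lacked, and the Dox peak is shown with its DRACH match in capitals.

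Jak1 Dox peak: ctgGAACAaccgaatgatcagctgc

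Stat3, the transcription factor at the end of the pathway, carried 5 DMSO peaks of 25 to 100 nt and no Dox peak. Together the peaks covered 225 bases, below the median of 350 bases over the protein-coding genes with a DMSO peak. The pattern of Stat3 also differed from that of the receptor genes in its position. Of the 5 peaks, 4 lay in short coding exons upstream, between positions -1901 and -1520, and 1 lay in the last exon, in the 3′UTR from position 260 to 309. None covered the stop codon.

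The best-scoring Stat3 peak, of 25 nt in exon 5 at chr11:100905867-100905891 (minus strand), had a score of 14.9. A second peak of 25 nt in exon 8, at chr11:100904913-100904937, had a score of 12.8. The other 3 scored 10.5 to 10.9. One of these, at chr11:100905184-100905208, had 5 of its 25 nt in exon 7 and 20 nt in the intron of 145 nt between exons 7 and 8 of the main transcript, a stretch that other annotated isoforms keep. The 2 best-scoring peaks are printed as the DMSO signal that had no counterpart in the Dox list, with a DRACH match in capitals in the first and GGAC in the second.

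Stat3 exon 5 DMSO peak: TGACAgagaagcagcagatgttgga

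Stat3 exon 8 DMSO peak: ccaacatctgcctGGACcgtctgga

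Socs3, the inhibitor that binds gp130 and JAK1, stood at the other end of the set. Its peaks covered 1375 bases in the DMSO list, 47.6% of its exonic bases, a share higher than in 97.6% of the protein-coding genes with a DMSO peak. In the Dox list they covered 1225 bases, or 42.4%. The medians over protein-coding genes with a peak were 7.82% for DMSO and 6.60% for Dox, so Socs3 was covered far more densely than most methylated transcripts in both. Its transcript of 2552 nt is short, and its 3 peaks in each list fell in the last exon of 2240 nt.

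The longest Socs3 peak spanned nearly the whole coding sequence and the stop codon. It measured 1100 nt at chr11:117967029-117968128 on the minus strand, with a score of 13.3, in the DMSO list. In the Dox list it measured 1075 nt at chr11:117967054-117968128, with a score of 14.2. Beside it a peak near the start codon, of 125 nt in the DMSO list and 50 nt in the Dox list, had scores of 10.6 and 11.2. The third peak, in the 3′UTR, was 150 nt long with a score of 12.3 in the DMSO list and 100 nt long with a score of 13.8 in the Dox list. For all 3 peaks of Socs3 the Dox peak was the shorter and had the higher score, and its percentile within its list was also higher, at 37.1, 88.4 and 86.1 against 12.8, 79.1 and 65.6.

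Of the 13 GGAC motifs in the Socs3 transcript, 10 lay under a peak in each list. These were the 6 in the coding sequence and the 4 in the 3′UTR, and the other 3 were in the 5′UTR. The coding window with most GGAC motifs, at chr11:117967926-117968045, held 2 of them.

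Socs3 coding window: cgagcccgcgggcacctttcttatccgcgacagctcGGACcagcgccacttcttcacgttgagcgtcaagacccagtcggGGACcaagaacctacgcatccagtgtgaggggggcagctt

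Socs2, known as an inhibitor of growth hormone and STAT5 signalling, had 4 DMSO peaks of 525 bases and 2 Dox peaks of 225 bases. In the DMSO list, 1 peak of 100 nt lay in exon 2 with a score of 12.9, 2 peaks of 175 nt each lay in the coding part of the last exon with scores of 12.7 and 16.1, and 1 peak of 75 nt lay in the 3′UTR with a score of 10.9. The first of these has 81 of its 100 nt in exons of the principal transcript, and the 175 nt peak with the score of 12.7 has 171, and the remaining bases lie outside these exons. The Dox peaks were 25 nt and 200 nt long, with scores of 10.4 and 12.1, and lay in the coding part of the last exon alone. None covered the stop codon, the nearest base of any Socs2 peak being at position -35. Positions for Socs2 refer to its principal transcript, Socs2-201.

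The copy behind the Socs2 coding peaks is uncertain. Of the 29 peaks of the 8 genes, 25 had no other near-identical place in the genome (98% identity or more over 90% or more of the peak), and the remaining 4 were all in the last coding exon of Socs2. They matched Gm9847, a processed pseudogene at chr12:14494561-14495159 on the plus strand, with an identity of 99.4 to 100%. The 25 nt Dox peak also matched Gm8000, an unprocessed pseudogene on chromosome 15. Neither pseudogene carried a peak in either list. How reads with several matching places were treated was not given in the sources used here, and the exon 2 peak of the DMSO list matched Gm9847 too, over 82 of its 100 nt with 98.8% identity. The 3′UTR peak of the DMSO list had no such match.

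The stretch of Socs2 common to both lists is shown by its coding window at chr10:95412701-95412820 on the minus strand, which holds 2 GGAC motifs. The 25 nt Dox peak at chr10:95412940-95412964, which alone among the 10 Dox peaks had no DRACH match, is printed after it and has no capitals.

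Socs2 coding window: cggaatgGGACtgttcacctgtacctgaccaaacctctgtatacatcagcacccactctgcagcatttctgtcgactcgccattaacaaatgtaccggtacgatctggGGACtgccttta

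Socs2 Dox peak: cggattgagtaccaagatgggaaat

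Socs1 and Cish had no peak in either list. Socs1 encodes an inhibitor that blocks JAK kinases directly, and Cish encodes one that acts on STAT5-activating receptors. Their transcripts, of 2908 and 2850 nt, are about as long as that of Socs3, and they hold 15 and 14 GGAC motifs beside its 13. In the 3′UTR lie 9 of the Socs1 motifs and 6 of the Cish motifs, beside 4 in Socs3. Whether they were expressed was not analysed here.

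**Figure D3:**
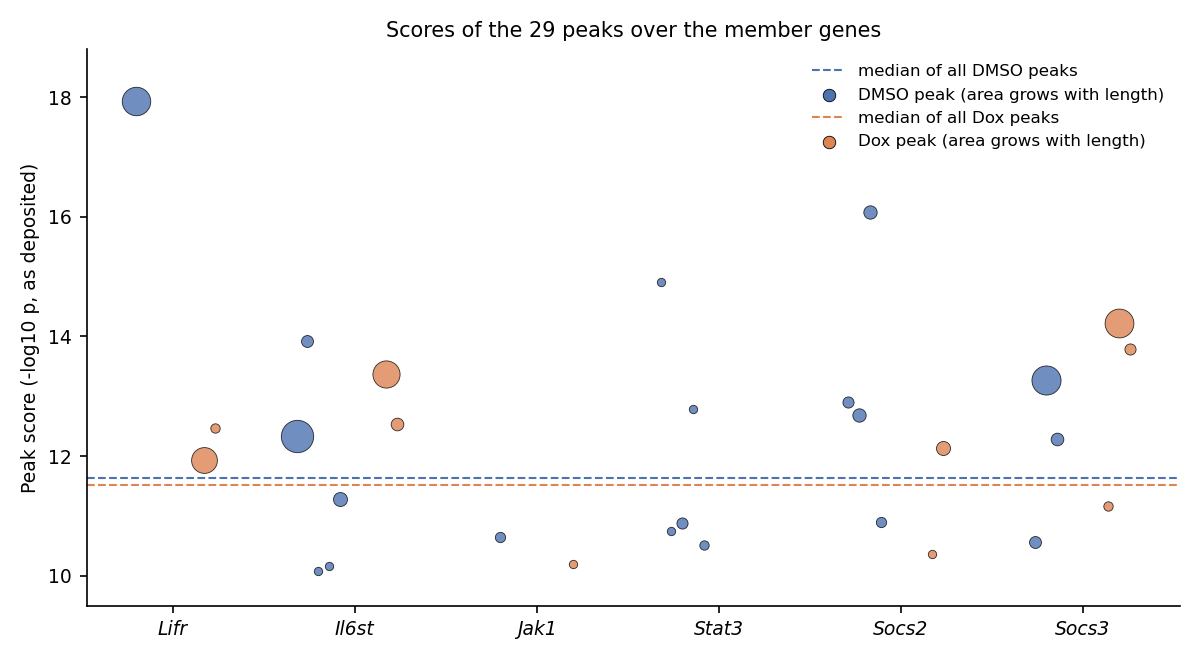
Score of each of the 29 peaks (vertical axis, read as the authors' −log10 p-value), by gene and list. The area of a point grows with the peak's length and dashed lines are the medians of all peaks of each list. The DMSO peak of Lifr stands highest at 17.9, and both Jak1 peaks lie below both medians.

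Across the 8 genes most of the covered sequence came from 3 peaks in each list. The peaks of 600 nt or more, 1 each on Lifr, Il6st and Socs3, held 3525 of the 5000 DMSO bases (70.5%) and 2875 of the 3475 Dox bases (82.7%). Over all peaks, those of that length held 23.1% of the DMSO bases and 21.6% of the Dox bases. By number they were 3 of the 19 DMSO peaks (15.8%) and 3 of the 10 Dox peaks (30.0%), beside 4.83% and 4.42% of all peaks. The median length of the peaks on the 8 genes, at 100 nt in the DMSO list and 125 nt in the Dox list, was close to the 125 nt of all peaks in each list. Their median score was 12.3 in both lists, beside 11.6 for all DMSO peaks and 11.5 for all Dox peaks.

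The last exons held most of the peaks. Summed over the principal transcripts, the last exon held 95.3% of the DMSO peak bases and 100% of the Dox peak bases, while it made up 62.6% of the length of the 6 transcripts with a peak. Stat3 and the exon 2 peak of Socs2 account for the rest. No last-exon share over all peaks is given here, and most of these bases lay in the long peaks of Lifr, Il6st and Socs3. By the middle base of the peak, 18 DMSO peaks could be placed on these transcripts, 9 in coding sequence and 9 in the 3′UTR. The Dox peaks divided into 5 and 5. Over all peaks the shares were 72.2% coding and 24.3% 3′UTR for DMSO, and 71.3% and 24.8% for Dox. Those shares were taken on the longest coding sequence of each gene, not on the principal transcript.

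The stop codon count took the peaks whose middle base lay within 200 nt of that codon. On the transcript with the longest coding sequence of each gene, 2 of 16 DMSO peaks (12.5%, interval 3.50 to 36.0%) and 3 of 10 Dox peaks (30.0%, interval 10.8 to 60.3%) met this, against 22.9% and 25.1% over all peaks. On the principal transcripts the counts were 3 of 18 and 4 of 10, and no share over all peaks on such transcripts is given here. For Lifr, Il6st and Socs3 the stop codon itself was inside a peak in both lists, although the middle of the Il6st DMSO peak, at position 257, fell outside the window.

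GGAC was present in 10 of 19 DMSO peaks (52.6%, interval 31.7 to 72.7%) and in 6 of 10 Dox peaks (60.0%, interval 31.3 to 83.2%), close to the 54.0% and 55.9% of all peaks. A DRACH match was present in 18 of 19 and 9 of 10, against 84.9% and 85.4%. Both shares depend on peak length. Of all peaks of 600 nt or more 97.6% in the DMSO list held GGAC, and of all peaks of 25 nt 14.5% did. A DRACH match was present in 43.9% of all 25 nt DMSO peaks and 45.1% of all 25 nt Dox peaks. The capitals in the printed sequences mark such matches and do not place the methylated base. The motif was searched on the peak's strand, and every GGAC that is followed by a base other than G is also a DRACH match.

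The rest of the pathway was described with 45 further genes, grouped by role. Of these, 24 carried a peak in the DMSO list (53.3%, interval 39.1 to 67.1%) and 21 in the Dox list (46.7%, interval 32.9 to 60.9%), 20 of them in both, beside the 27.5% and 22.1% of all protein-coding genes. All 10 genes known to be transcribed under LIF and STAT3 in ESCs had peaks in both lists (interval 72.2 to 100%), as did the 4 adaptors of gp130, Ptpn11, Gab1, Grb2 and Sos1 (interval 51.0 to 100%). The groups were listed by hand with earlier results of these data known. Their shares and intervals are therefore descriptions and cannot show enrichment. Of the 12 other negative regulators, 8 carried a DMSO peak (66.7%, interval 39.1 to 86.2%) and 5 carried one in the Dox list (41.7%, interval 19.3 to 68.0%). For the negative regulators in the Dox list the interval holds the share of all protein-coding genes.

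Few peaks were found on the ligands, the other receptors and the other kinases. None of 10 ligands and receptors had a DMSO peak (interval 0 to 27.8%), and Il6ra, the IL-6 receptor chain, had the single Dox peak (interval 1.79 to 40.4%), of 50 bases with a score of 11.2. None of the 3 kinases Jak2, Jak3 and Tyk2 had a peak in either list (interval 0 to 56.1%). Of 6 other STATs, Stat2 had peaks in both lists and Stat6 in the DMSO list alone (intervals 9.68 to 70.0% and 3.01 to 56.4%). The intervals of these 3 groups are wide and hold the shares of all protein-coding genes in both lists.

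Peaks in the DMSO list alone, as on Stat3, were found on 4 of the 24 pathway genes with a DMSO peak (16.7%, interval 6.68 to 35.9%), beside 22.0% over all protein-coding genes with one. Socs4 with 275 DMSO bases, Stat6 with 100, and Socs7 and Ptpn2, a phosphatase that acts on JAK1, with 75 each had no Dox peak. All 4 were covered by at most 3 DMSO peaks, and the best score among them was 11.5, below the 14.9 of Stat3. The genes with most bases in peaks were the same in both lists. Klf4, a transcription factor that sustains the undifferentiated state, had 2375 DMSO and 2325 Dox bases, Klf5, its relative, had 1900 and 1700, and Gab1 had 1625 and 1475.

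By the distance between log2(1 + bases) in the 2 lists, the pathway gene most like Lifr was Tfcp2l1 (0.30), that most like Il6st was Gab1 (0.44), and that most like Socs3 was also Gab1 (0.36). Stat3 was closest to Socs4 (0.29), Socs2 to Ptpn11 (0.17) and Jak1 to Pias1 (2.51). With only 2 lists behind each distance, these likenesses are descriptions of extent. Every pathway gene with peaks in both lists had more bases in each than Jak1.

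**Figure D4:**
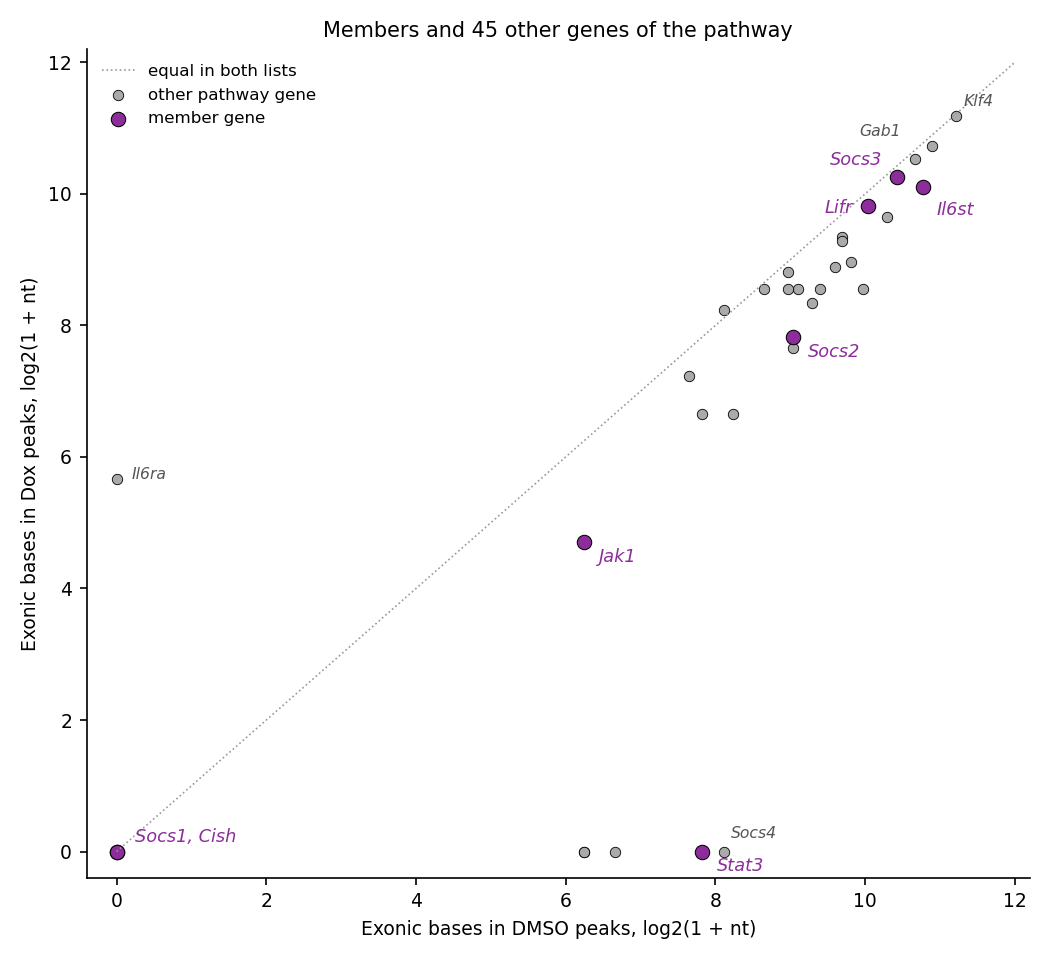
Exonic bases in DMSO peaks (horizontal axis) against those in Dox peaks (vertical axis), both as log2(1 + nt), for the 8 genes (purple) and the 45 other pathway genes (grey), with a dotted line where both lists are equal. Points on the lower axis, Stat3 and Socs4 among them, have DMSO peaks alone, and Il6ra is the only point on the left axis above 0.

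Among the 53 genes, 25 had peaks in both lists, and 24 of these had fewer bases in the Dox list. Over all 4730 protein-coding genes with peaks in both lists, 85.7% had fewer bases in the Dox list, and the median Dox extent was 70.4% of the DMSO extent. Set beside that median, the Dox extent was 89.1% of the DMSO extent for Socs3 and 85.7% for Lifr. It was 62.9% for Il6st, 42.9% for Socs2 and 33.3% for Jak1. By this measure the genes ran from Socs3 and Lifr down to Jak1 and Stat3. The order did not follow peak length throughout, as Il6st, with the longest DMSO peak at 1375 nt, was below that median. Without replicates it cannot be said which neighbours in that order differ. Extent counts bases in called peaks and is not a level of m6A, which the study reported to rise globally under Dox.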

How the data were processed

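According to the study's methods and the submitters' processing notes, reads were filtered with fastp 0.19.4, aligned to mm10 with hisat2 2.2.1, and exomePeak2 was then run on IP and input reads to call peaks. Its version and settings, and how replicates were combined, were not stated. Each deposited list holds more peaks than the study reported for its treatment. The deposited lists give 1 value per peak, read as the authors' −log10 p-value because all values were at least 10.0 and a few were infinite, and whether it was adjusted is not given in the sources used here. The depth of each library was not analysed here, and a deeper library gives more peaks at a fixed threshold.

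Peaks were assigned to GENCODE M21 exons (GRCm38), and 99.8% of inner block edges in each list lay at an annotated exon edge. A peak's length is the sum of its blocks. Overlap meant at least 1 shared base on the same strand. Positions in the text use the APPRIS principal transcript, a choice made after the Socs2 peaks were seen, because the longest coding sequence of Socs2 belongs to a transcript with an incomplete start. Sequences were read from the RefSeq GRCm38.p6 genome. Near-identical places were searched with blastn 2.17.0, and Python 3.11.15, samtools 1.23.1 and matplotlib 3.10.9 were used. The steps that assign peaks to genes, overlaps and stop codons were tested on simulated data.

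Named were all 8 genes with their peaks, pathway genes with a peak in one list alone, up to 3 per list with most bases in peaks, and for each of the 8 genes with a peak the most similar pathway gene. Genes and lists were chosen with earlier results of these data known. Alternatives covered the score, equal list sizes (the 13001 best peaks of each list), strand, overlap, peak length, transcript, stop codon window and motif.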

Additional observations from a re-analysis of the deposited data

How the results depend on the processing

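No paired analysis was possible because the authors combined the replicates of a treatment into 1 list, which also meant that no replicate could be left out. Of 54 values recomputed under alternatives over 14 results, 44 stayed within the interval or within 1.5 times of the reported value. With a score of at least the DMSO median (11.6), 10 DMSO peaks were left in place of 19, and the pathway genes with a peak numbered 15 in the DMSO list in place of 24 and 12 in the Dox list in place of 21. Jak1 then had no peak in either list, and Stat3 kept 2 DMSO peaks. With lists of equal size, 11 DMSO peaks were left beside an unchanged 10 Dox peaks, and 80% of these Dox peaks shared a base with a DMSO peak. Jak1 had a Dox peak alone there, and Stat3 again had 2 DMSO peaks. When peaks under 150 nt apart were joined, an alternative chosen after seeing the data, the peaks numbered 12 in the DMSO and 6 in the Dox list, which by construction makes peak counts smaller. Requiring 50% of both peaks to be covered left 50% of Dox peaks overlapped in place of 100%. A stop codon window of 400 nt gave 37.5% of DMSO peaks in place of 12.5%. DRACH in place of GGAC gave 94.7% of DMSO and 90% of Dox peaks. The principal transcript was also chosen after seeing the data, and gave 16.7% and 40.0% of peaks at the stop codon, without a matching share over all peaks. Among peaks of at least 50 nt, Jak1 had a DMSO peak alone. A score under 11 was held by 8 of the 19 DMSO peaks (42.1%, beside 27.4% of all DMSO peaks) and 2 of the 10 Dox peaks (20%, beside 30.4%), and what depth adds to such calls was not tested.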

Other observations

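In Lifr the number of peaks and the bases in peaks differed in opposite directions, with 1 DMSO and 2 Dox peaks but 1050 and 900 bases. The 2 Dox peaks of Lifr lie under 150 nt apart and count as 1 when such peaks are joined. Opposite directions were also seen in 5 of the 20 pathway genes with peaks in both lists, chosen for mention after their values were seen. Gab1 had 6 DMSO and 7 Dox peaks with 1625 and 1475 bases, Klf4 had 3 and 5 peaks with 2375 and 2325 bases, and Klf5 had 4 and 5 peaks with 1900 and 1700 bases. Myc, a growth-promoting transcription factor, had 2 and 3 peaks with 775 and 475 bases, and Junb, an AP-1 subunit, had 4 and 5 peaks with 1000 and 375 bases. Over all 4730 protein-coding genes with peaks in both lists, 10.7% had more peaks and fewer bases in the Dox list. Among the 53 genes described, Lifr included, it was 6 of the 25 with peaks in both lists.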
